A study of Homo sapiens with 4 samples.

Results

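The 10 genes described here belong to the Hippo pathway or answer to it. They were taken by symbol, as a named list with no threshold on any measured value, from the 60656 gene IDs counted in the series. They are the transcriptional coactivators YAP1 and WWTR1 (the gene of TAZ), the DNA-binding partners TEAD1, TEAD3 and TEAD4, the kinases LATS1 and LATS2, and the target genes CCN1, CCN2 and AMOTL2. All 10 were found, and all 10 passed the filter on low counts together with 19103 genes in total.

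The assay was TTchem-seq, which sequences RNA made during a short pulse of 4-thiouridine and so reads ongoing transcription. The cells were HCT116, a human colorectal carcinoma line, in 2 groups of 2 libraries. DKO cells, whose genotype label is a TOP2A and TOP2B double knockout, are TOP2A mAID/TOP2B -/-: both endogenous TOP2A alleles carry an auxin-inducible degron, a tag that lets auxin trigger destruction of the protein, and TOP2B was knocked out. They received 500 µM auxin (indole-3-acetic acid) for 8 h. The WT libraries have a wildtype genotype in the labels, with no auxin recorded; the treatment text names only TOP2A mAID and TOP2A mAID/TOP2B -/- lines, so whether WT cells carry the degron tag is not given in the sources used here. All cells were held in G1 for 28 h with 2 µM palbociclib, an inhibitor of the kinases CDK4 and CDK6, and pulsed with 1 mM 4-thiouridine for 30 min. Loss of the enzymes, auxin and any difference between the cell lines cannot be told apart. Nothing in the labels tells separate cultures from technical repeats or gives the number of clones, so p-values measure only the spread between these libraries.

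The Hippo pathway limits growth by restraining YAP and TAZ. LATS kinases, switched on by the MST kinases and their scaffolds, phosphorylate both coactivators, which are then held in the cytoplasm or degraded. When LATS activity is low, as in spread cells at low density, YAP and TAZ enter the nucleus, bind TEAD factors and switch on genes such as CCN1 and CCN2. Several targets, among them LATS2 and AMOTL2, encode inhibitors of YAP and so close a feedback loop. In colorectal epithelium the pathway is known for its part in regeneration and tumour growth. Control acts largely on the proteins, which this assay does not measure.

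Counted reads ran from 51142867 to 53777749 per library. CPM, the share of a gene in the counted reads of its library, was scaled by TMM factors. Across genes, which are not independent, log2 CPM gave r = 0.9969 between the DKO libraries, 0.9966 between the WT libraries and 0.9864 to 0.9872 between groups. TOP2B RNA stood at 147 and 150 CPM in DKO and 140 and 143 in WT, and TOP2A RNA at 165 and 168 against 126 and 122, so transcript counts do not show the edit or the degradation. Epithelial identity was present, with EPCAM at 69.2 to 72.9 CPM in the 4 libraries, and the intestinal factor gene CDX2 had 548 to 694 reads per library, while the intestinal markers CDX1 and VIL1 had 2 and 32 reads over all libraries. The call rule was an edgeR quasi-likelihood p under 0.05 after Benjamini-Hochberg adjustment over all tested genes. By that rule 40.1% of tested genes were called, 19% higher and 21.1% lower in DKO, and 49.5% of those with a mean of at least 10 CPM.

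Of the 10 Hippo genes, 3 were higher in DKO (YAP1, WWTR1 and CCN2), 4 were lower (TEAD3, TEAD4, CCN1 and AMOTL2), and TEAD1, LATS1 and LATS2 were not called. Their median log2 fold change was -0.10, against -0.01 for all tested genes. In either direction, 40.1% of all tested genes were called. The share was 45.5% for tested protein-coding genes and 49.5% for genes with a mean of at least 10 CPM. The 2 libraries of each group did not overlap for any of the 10 genes, which also held for 67.9% of all tested genes. Called genes of the whole table had a median change of 0.36 on the log2 scale, sign ignored; YAP1, WWTR1 and CCN2 exceeded it and the other 7 did not. In these bulk libraries fewer cells that transcribe a gene and less RNA per cell cannot be told apart. The 3 rises passed the test under each of 13 alternative settings, left-out libraries included. Each of the 4 falls missed it under at least 2 of them.

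**Figure D1:**
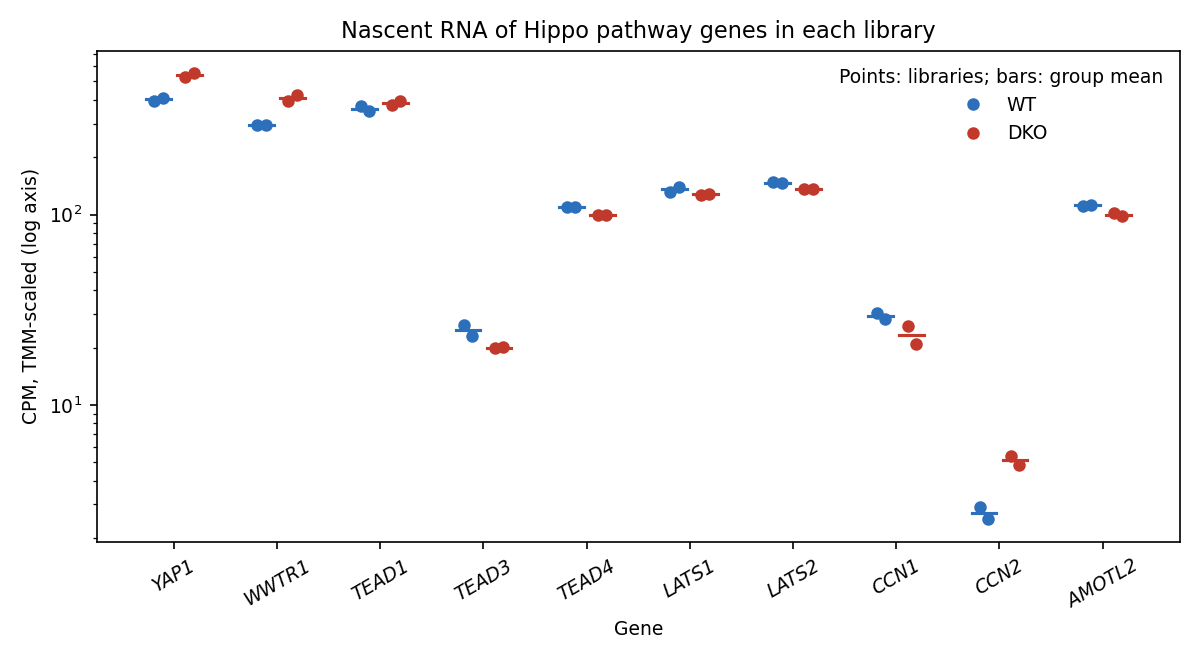
CPM (log axis) of the 10 genes, with 1 point per library and a bar at each group mean. YAP1 and WWTR1 lie higher in both DKO libraries than in both WT libraries, and CCN2, the least counted gene, does too.

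Both coactivator genes were called higher. YAP1 (ENSG00000137693.14; chromosome 11, 102110447 to 102233424, hg38) stood at 526 and 553 CPM in DKO and at 393 and 411 CPM in WT. Both DKO libraries were above both WT libraries, and the gene was among the most counted, at the 98.8th percentile of mean CPM. Its log2 fold change was 0.43 ± 0.05 (SE, n = 2 per group, adjusted p = 1.06e-13), or 1.34-fold. The errors come from the F statistic of edgeR, which pools spread over genes. WWTR1 (ENSG00000018408.15; chromosome 3, 149517235 to 149724788), whose product TAZ shares the TEAD partners of YAP, stood at 393 and 426 CPM in DKO and 295 and 294 CPM in WT. The WT libraries were nearly equal and the DKO libraries both higher, by a log2 of 0.48 ± 0.05 (adjusted p = 6.13e-17), or 1.39-fold. With 1 library left out, YAP1 ranged from 0.39 to 0.46 and WWTR1 from 0.42 to 0.53.

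The balance between the coactivators was set out within each library. The ratio of YAP1 to WWTR1 CPM was 1.339 and 1.299 in DKO and 1.331 and 1.398 in WT, so the ranges of the groups overlapped. The antisense gene WWTR1-AS1, which lies inside WWTR1, had 80 and 74 DKO reads against 53 and 49 in WT and was also called higher (0.54 ± 0.20, adjusted p = 0.0213). Its reads are few beside the 15018 to 22724 of WWTR1, and the strand setting of the counting is not given in the sources used here. Most tested markers of mesenchymal cells, a state in which YAP and TAZ are often active, were higher in the same libraries. From a list of 10, 5 of 7 tested members (ZEB1, TWIST1, SNAI2, COL5A1 and ACTA2) were called higher and none lower. Their summed level was 105 and 114 CPM in DKO against 56.9 and 57.8 in WT, most of it ZEB1 (91.5 and 100 against 50.1 and 51 CPM), with COL1A2 at 0 in every library and VIM at 10 and 10 reads in DKO and 4 and 0 in WT. With WT replicate 1 left out 2 of those calls stood, and with WT replicate 2 left out also 2. Among the called mesenchymal markers, SNAI2 (DKO reads 30 and 16, WT reads 7 and 10) and COL5A1 (15 and 22 against 6 and 7) were little counted. The tested members not called were FN1 (0.29, at 10 to 23 reads) and COL1A1 (-0.14). Of 6 tested neuronal markers 3 were higher (SYT1, SNAP25 and NCAM1; summed 527 and 600 against 137 and 142 CPM, nearly all of it SYT1). Of 8 tested epithelial markers 5 were lower (CDH1, KRT8, KRT18, ELF3 and CLDN7; summed 446 and 432 against 505 and 472 CPM). For comparison, 19% of all tested genes were called higher and 21.1% lower. Without WT replicate 1 only 1 epithelial call was left. The part of these shifts in the Hippo gene values was not tested.

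TEAD genes encode the factors that bring YAP and TAZ to DNA, and they did not move as a block. TEAD1 (ENSG00000187079.19; chromosome 11, 12674421 to 12944737), the most counted of them, stood at 378 and 394 CPM in DKO and 370 and 348 CPM in WT. The nearest libraries of the groups lay closer to each other than the WT pair did, and its log2 fold change of 0.10 ± 0.05 was not called (adjusted p = 0.08, 95% interval 0.01 to 0.20). Without DKO replicate 1 it was called, at 0.14 (adjusted p = 0.0337). Without WT replicate 2 it was 0.06.

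TEAD3 (ENSG00000007866.21; chromosome 6, 35473597 to 35497079) stood at 19.8 and 20.1 CPM in DKO and at 26.4 and 23.1 CPM in WT. Both DKO libraries were lower, by a log2 fold change of -0.31 ± 0.07 (adjusted p = 6.14e-05). Without WT replicate 1, the higher of the pair, the value was -0.21 and no longer called (adjusted p = 0.112). TEAD4 (ENSG00000197905.9; chromosome 12, 2959397 to 3040676) had tight replicates, 99.4 and 99.2 CPM in DKO and 110 and 109 CPM in WT. It was lower by a log2 fold change of -0.14 ± 0.05 (adjusted p = 0.00819). The call ended without WT replicate 1 (adjusted p = 0.143), without WT replicate 2 (0.11) and with upper quartile factors (0.0623), although the value stayed between -0.15 and -0.11. TEAD2, the fourth gene of the family, stood at 15.2 and 18.3 CPM in DKO and 19.3 and 19.4 CPM in WT (-0.21 ± 0.07, adjusted p = 0.0133). Its call ended without WT replicate 1, without WT replicate 2 and without DKO replicate 1, the last at -0.08.

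LATS1 (ENSG00000131023.13; chromosome 6, 149658153 to 149718101) and LATS2 (ENSG00000150457.9; chromosome 13, 20973036 to 21061586) encode the kinases that phosphorylate YAP and TAZ. LATS1 stood at 127 and 128 CPM in DKO and 132 and 140 CPM in WT. LATS2, itself a target of YAP, stood at 137 and 136 CPM in DKO and 148 and 146 CPM in WT. For both genes the DKO libraries lay below the WT libraries, without passing the test. The log2 fold change was -0.09 ± 0.05 for LATS1 (adjusted p = 0.105, 95% interval -0.19 to -0.00038) and -0.11 ± 0.05 for LATS2 (adjusted p = 0.0531, 95% interval -0.20 to -0.02). LATS1 moved to -0.05 without WT replicate 2. LATS2 sat at the threshold and passed it with limma voom (0.0491), with total counts as the only scaling (0.0392) and without chromosome 20 genes (0.0427).

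The summed CPM of YAP1 and WWTR1 divided by that of LATS1 and LATS2 was 3.48 and 3.71 in DKO and 2.46 in both WT libraries. This ratio carries the differences given above and is a description of transcription, with no test. It does not use gene length, so it says how the balance differed between groups and not how many transcripts of each gene there were.

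**Figure D2:**
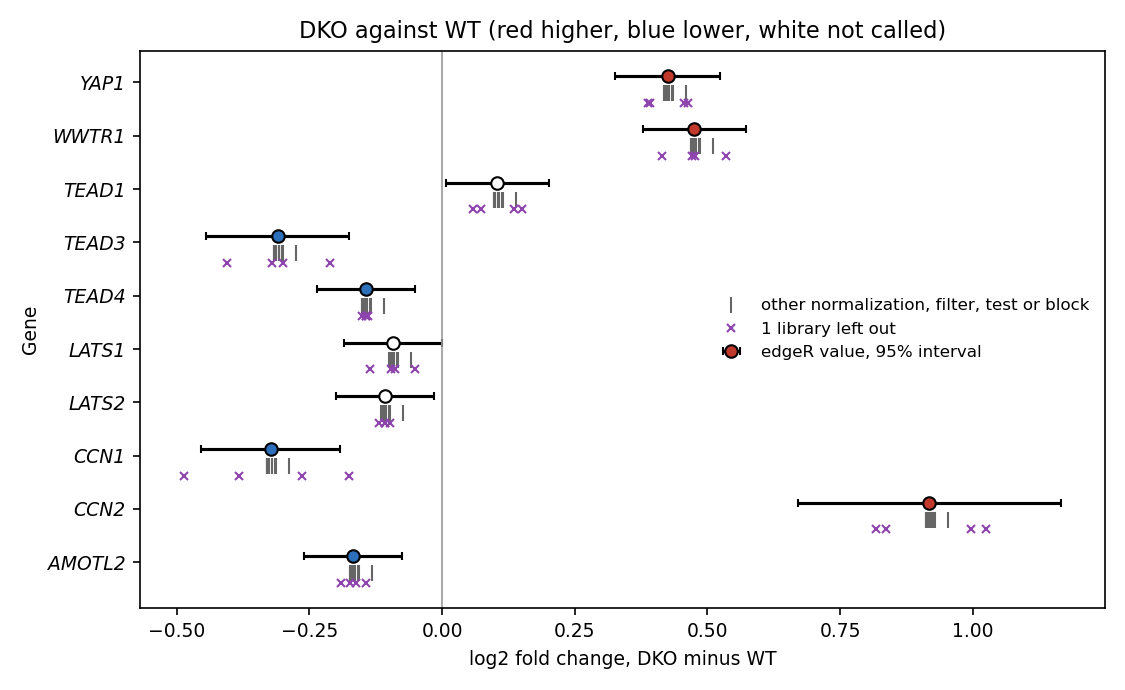
Log2 fold change (DKO minus WT) of each gene, with its 95% interval (points), under the other normalizations, filters, tests and block (ticks) and with 1 library left out (crosses). YAP1, WWTR1 and CCN2 stay well above 0, while CCN1 spreads from -0.49 to -0.18 as libraries are left out.

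The target genes moved in opposite directions. CCN2 (ENSG00000118523.6; chromosome 6, 131948176 to 131951372; connective tissue growth factor), a matricellular protein gene widely used to read YAP activity, had 287 and 257 DKO reads and 150 and 128 WT reads. That is 5.39 and 4.82 CPM against 2.89 and 2.51 CPM, and the lowest DKO library was above the highest WT library. The log2 fold change was 0.92 ± 0.13 (adjusted p = 1.10e-10), or 1.89-fold, the largest of the 10. With 1 library left out it ranged from 0.82 to 1.02 and was called each time. The antisense gene CCN2-AS1 spans CCN2 and was not analysed here, so reads of the 2 genes cannot be told apart without the strand setting.

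CCN1 (ENSG00000142871.18; chromosome 1, 85580761 to 85583950; CYR61), its close relative and the other usual YAP readout, went the other way. It stood at 25.9 and 20.9 CPM in DKO and 30.5 and 28.1 CPM in WT, so the DKO libraries differed from each other by more than the nearer of them did from WT. The difference was -0.32 ± 0.07 on the log2 scale (adjusted p = 1.69e-05). Without DKO replicate 2 it was -0.18 (adjusted p = 0.0604). Without DKO replicate 1 it was -0.49. The call also ended without WT replicate 1 (adjusted p = 0.273) and without WT replicate 2 (0.112). The ratio of CCN1 to CCN2 CPM was 4.81 and 4.33 in DKO and 10.5 and 11.2 in WT.

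AMOTL2 (ENSG00000114019.14; chromosome 3, 134355345 to 134375417), which encodes an angiomotin that binds and restrains YAP, stood at 101 and 98 CPM in DKO and 112 and 112 CPM in WT. Both DKO libraries were lower, with a log2 fold change of -0.17 ± 0.05 (adjusted p = 0.00194). The value was -0.17 and -0.16 without WT replicate 1 and 2 in turn, and no longer called (adjusted p = 0.112 and 0.107). Of the target genes among the 10, LATS2 included, CCN2 was thus the only one called higher.

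**Figure D3:**
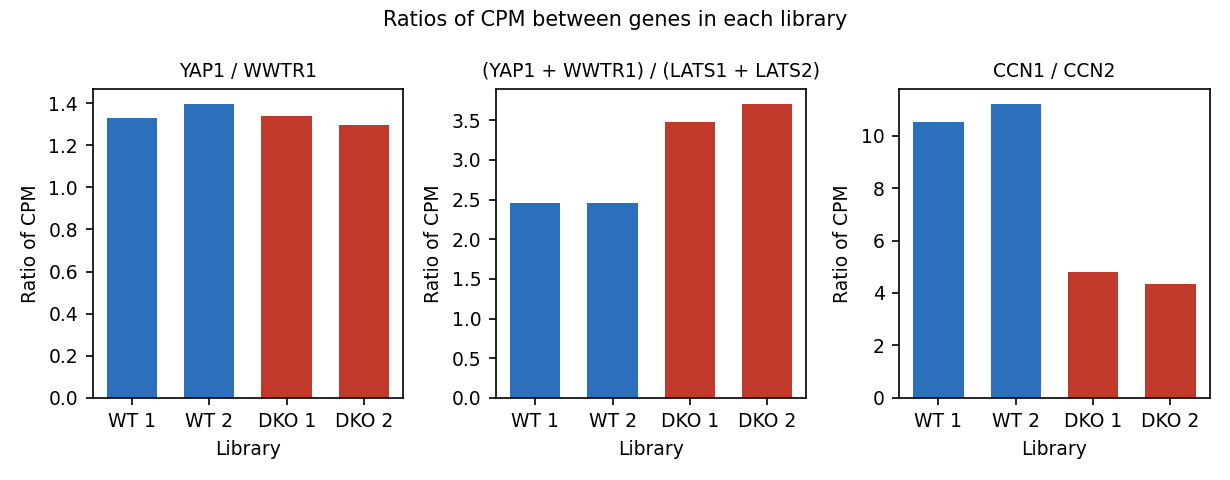
Ratios of CPM between genes in each library, with bars from 0. YAP1 to WWTR1 is similar in all 4 libraries, the coactivators to LATS kinases ratio is higher in both DKO libraries (3.48 and 3.71 against 2.46), and CCN1 to CCN2 is lower (4.81 and 4.33 against 10.5 and 11.2).

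TEAD factors bind the sequence GGAATG, and RefSeq promoter windows (GRCh38.p14) were searched for it on both strands over the 250 bases before each start. Windows were found for 7 of the 10 genes, the others being TEAD1, TEAD4 and CCN1. Those of YAP1, CCN2 and AMOTL2 hold the motif, and it is not in those of WWTR1, TEAD3, LATS1 and LATS2. CCN2 has it 3 times, at -169, -104 and -95 from the start. Across all 35116 windows 11.9% hold at least 1 match and 0.0826%, or 29 windows, hold 3 or more. YAP1 has 1 match at -162. AMOTL2 has 1 on the opposite strand at -69 from the inner of its 2 listed starts, and none before the outer one. These sequences are given because 2 of the genes were called higher and 1 lower. They run 5′ to 3′ along the gene, with the matches in capitals. The first is chr6:131951373-131951622 (minus strand), the next chr11:102110197-102110446 (plus strand) and the last chr3:134374499-134374528 (minus strand).
CCN2: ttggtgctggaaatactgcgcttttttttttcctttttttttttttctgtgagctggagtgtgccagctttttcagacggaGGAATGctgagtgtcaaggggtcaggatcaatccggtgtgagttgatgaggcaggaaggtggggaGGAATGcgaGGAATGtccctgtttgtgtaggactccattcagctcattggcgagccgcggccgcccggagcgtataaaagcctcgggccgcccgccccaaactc
YAP1: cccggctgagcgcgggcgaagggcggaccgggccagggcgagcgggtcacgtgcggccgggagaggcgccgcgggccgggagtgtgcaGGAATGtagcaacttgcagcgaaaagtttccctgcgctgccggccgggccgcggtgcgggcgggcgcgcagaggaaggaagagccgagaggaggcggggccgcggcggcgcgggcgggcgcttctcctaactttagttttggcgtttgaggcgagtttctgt
AMOTL2: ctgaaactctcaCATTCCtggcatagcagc

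In the CCN2 window the matches nearest the start are separated by 3 bases, and a TATA-like stretch (tataaaag) lies near the start. In AMOTL2 the capitals CATTCC are the motif as read on the other strand. A match in these windows describes letters only and does not show binding. Of the other YAP and TAZ targets considered below, 8 of the 16 genes with a window hold the motif in at least 1 window, against 3902 of 27305 genes in the whole table. Among the 8 are genes called higher (TGFB2, ANKRD1, THBS1 and EDN1), genes called lower (NUAK2, AXL and PTPN14) and FOXF2, which had no reads. THBS1, EDN1 and PTPN14 are named here for the motif, after their values were seen.

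Levels of different genes can be compared only per length, and CPM was divided by the RefSeq genomic span. Whether introns were counted is not given in the sources used here, so these levels hold only if reads were counted over whole genes. In WT the order was CCN1 (9.18 CPM per kb), AMOTL2 (5.58), YAP1 (3.27), LATS1 (2.27), LATS2 (1.66), WWTR1 (1.42), TEAD4 (1.35), TEAD1 (1.33), TEAD3 (1.05) and CCN2 (0.844). TEAD4 and TEAD1 overlapped between libraries, and the other neighbours in that order did not. In DKO, WWTR1 stood at 1.97 CPM per kb and CCN2 at 1.597, both ahead of LATS2 at 1.54, whose libraries overlapped those of CCN2.

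The spans of the 10 genes run from 3.19 kb (CCN1) to 270 kb (TEAD1), and span moved with direction over all genes. Of 2148 tested protein-coding genes of 100 to 300 kb, 34.1% were called higher and 18.3% lower, with a median log2 fold change of 0.06. YAP1, WWTR1 and TEAD1 belong to that class. Of 3641 genes of 10 to 30 kb, the class of TEAD3 and AMOTL2, 12.6% were higher and 30.2% lower, with a median of -0.07. CCN1 and CCN2 are under 10 kb, where 10.5% were higher and 31.2% lower (median -0.12), so CCN2 stood against the run of its class and CCN1 with it. Spearman's rho between span and log2 fold change was 0.479 over the 10 genes and 0.252 over 13083 protein-coding genes, as a description of values that share the same 4 libraries. The part of span in these differences was not tested.

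The rest of the pathway was read from lists of 75 further genes, of which 66 were tested, 23 were called higher and 16 lower, against 45.5% of tested protein-coding genes called. Their median log2 fold change was 0.02. With WT replicate 1 left out 9 were higher and 6 lower, and with WT replicate 2 left out 9 and 12. In the MST kinase core, which activates LATS, 2 of 6 genes were higher and 2 lower. SAV1, the scaffold that joins MST kinases to LATS, stood at 149 and 142 CPM in DKO and 109 and 105 in WT (0.44 ± 0.05, adjusted p = 2.78e-16). NF2, the merlin tumour suppressor that recruits LATS to the membrane, stood at 166 and 157 CPM against 207 and 205 (-0.35 ± 0.05, adjusted p = 5.17e-11). STK4, which encodes MST1, stood at 201 and 202 CPM in DKO and 271 and 277 in WT (-0.44 ± 0.05, adjusted p = 5.31e-16). It lies on chromosome 20, where 340 of 428 tested genes were lower, with a median of -0.59. STK3, the gene of MST2, was higher by only 0.13 ± 0.05 and lost its call without WT replicate 1, WT replicate 2 or DKO replicate 2. SAV1, NF2 and STK4 kept theirs in every such run.

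Among junction and scaffold regulators 6 of 14 tested genes were higher and 3 lower, against 45.5% of tested protein-coding genes called. FAT4, an atypical cadherin whose fly relative acts upstream of the pathway, went from 4.17 and 4.07 CPM in WT to 11.4 and 12.7 in DKO (1.55 ± 0.10, adjusted p = 5.98e-34), the largest change of any upstream gene listed. FRMD6, a FERM protein gene, rose by a log2 of 0.41 ± 0.05. AMOT, an angiomotin like AMOTL2, rose by 0.50 ± 0.13 from 2.93 and 2.66 CPM. The falls were WWC1 (KIBRA, -0.23 ± 0.05), WTIP (-0.27 ± 0.07) and the polarity gene SCRIB (-0.21 ± 0.07). AMOT and WWC1 were not called without WT replicate 1, nor without WT replicate 2. WTIP was not called without WT replicate 1, and SCRIB without WT replicate 1 (-0.06) or DKO replicate 1. FAT4 and FRMD6 were called in each of these runs.

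The other upstream groups were split in direction, beside 45.5% of tested protein-coding genes called. Of 10 MAP4K and TAO kinase genes, which can activate LATS in parallel to MST, TNIK (0.26) and MAP4K4 (0.21) were higher and TAOK2 (-0.29) and MINK1 (-0.20) lower. Of 13 genes of the STRIPAK complex, a phosphatase that holds MST kinases in check, STK26 (0.15), PDCD10 (0.14) and STRN (0.11) were higher and STK25 (-0.42) and STRN3 (-0.18) lower. Beside TEAD2, VGLL4, a cofactor that competes with YAP for TEAD, was the only tested gene of its family and stood slightly higher (0.15), while VGLL1, VGLL2 and VGLL3 had 0 to 3 reads per library. Without WT replicate 1 STK25 was the only one of these 10 genes still called, and without WT replicate 2 TAOK2, MINK1 and STK25 were. Leaving out WT replicate 1 moved TAOK2 to -0.18, and leaving out DKO replicate 2 moved STRN to 0.05, TNIK to 0.16 and VGLL4 to 0.09. STRN3 was -0.11 both without DKO replicate 1 and without WT replicate 2, and STRN was 0.18 without DKO replicate 1.

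Of 19 tested members of the list of other YAP and TAZ targets, 8 were higher and 6 lower, with a median of 0.01, against 45.5% of tested protein-coding genes called in either direction. TGFB2, a secreted growth factor gene, went from 33.1 and 34.2 CPM in WT to 131 and 128 in DKO (1.94 ± 0.05, adjusted p = 2.42e-89). AREG, an EGF receptor ligand gene, went from 51.8 and 46.7 to 105 and 98.9 CPM (1.05 ± 0.05, adjusted p = 8.26e-49). ASAP1 rose by a log2 of 0.49 ± 0.05. Among the lower genes were NUAK2, a kinase gene in a feedback loop with YAP, from 14.1 and 12.6 to 6.25 and 6.38 CPM (-1.08 ± 0.09, adjusted p = 4.33e-23), and the receptor kinase gene AXL (-0.56 ± 0.05). ANKRD1, the usual companion of CCN1 and CCN2 as a readout, was named here after its values were seen. Its DKO libraries held 26 and 29 reads and its WT libraries 8 and 9 (1.63 ± 0.38, adjusted p = 0.000167). Without WT replicate 1 ANKRD1 was not called (adjusted p = 0.0685), while TGFB2, AREG, ASAP1, NUAK2 and AXL were called in each run.

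In the CCN family CCN3, also named after its values were seen, was higher (60 and 48 DKO reads, 20 and 16 WT reads; 1.53 ± 0.28, adjusted p = 1.07e-06), CCN4 was not called, and CCN5 and CCN6 had 0 to 5 reads per library. SRF and its MRTF coactivators share targets such as CCN1 with YAP. Of 15 tested genes of that list 2 were higher (ACTA2, 0.48, and FHL2, 0.16). The 5 lower were MYL9 (-1.05), TPM1 (-0.33), CNN2 (-0.33), VCL (-0.30) and ZYX (-0.23). The list's median was 0.01, and 45.5% of tested protein-coding genes were called in either direction. VCL and ZYX are named beyond the rule, MYL9 lies on chromosome 20, and without WT replicate 1 MYL9 and VCL were the only ones of the 7 still called. SRF itself stood at 16.5 and 15.2 CPM in DKO and 18 and 17 in WT and was not called (-0.14, adjusted p = 0.128).

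**Figure D4:**
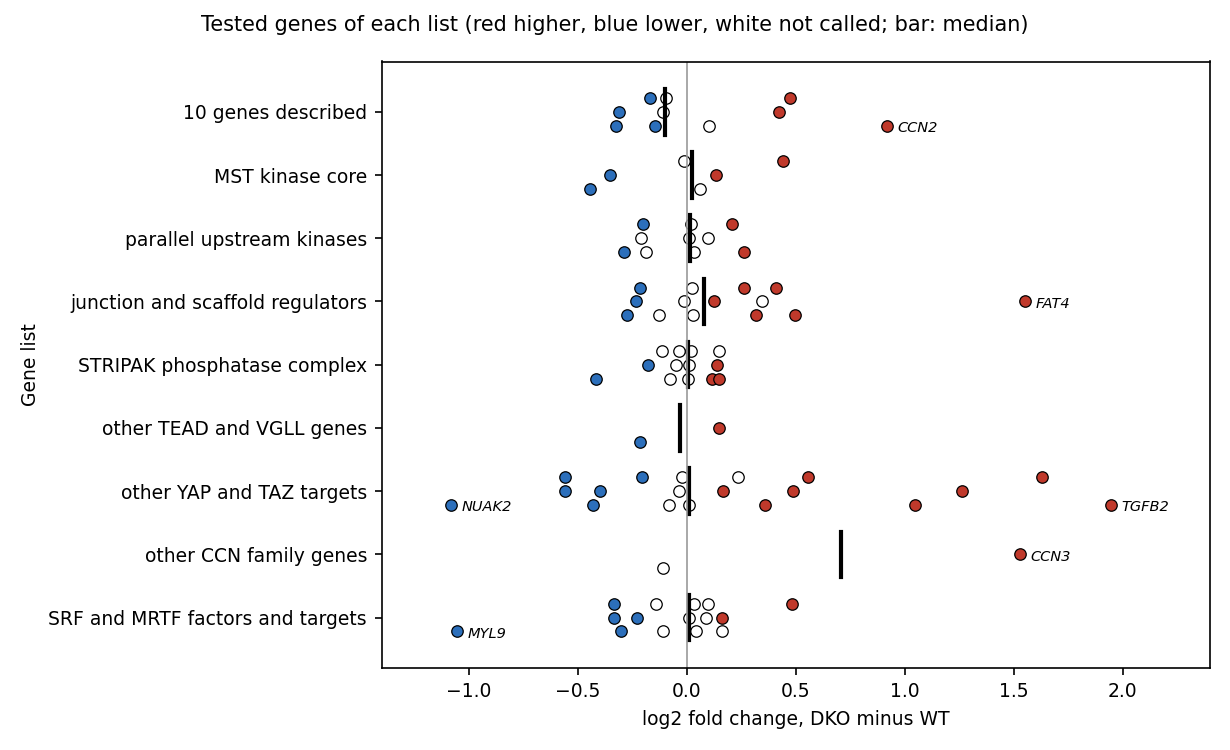
Log2 fold change (DKO minus WT) of every tested gene of each list, with a bar at the list's median. Red and blue points lie on both sides of 0 in most lists, with TGFB2, FAT4 and CCN3 far to the right and NUAK2 and MYL9 far to the left.

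The nearest tested protein-coding gene on each side was set beside each Hippo gene. Of 20 such neighbours 7 were higher and 2 lower, and the other 11 lay between -0.09 and 0.19 on the log2 scale. Of all tested protein-coding genes 45.5% were called in either direction, a share near that of the neighbours. Beside the 7 called genes, 3 of 14 neighbours were called in the same direction and 3 in the opposite one. YAP1 had CEP126 (0.54 ± 0.08) at 109 kb on one side. WWTR1 had HPS3 (0.33 ± 0.07) at 344 kb, but COMMD2, 13.7 kb from its other end, stood at 28.9 and 30.6 CPM in DKO and 30.2 and 29.4 in WT. TEAD1, not called, lay between PARVA (0.28 ± 0.05) and the clock gene BMAL1 (0.39 ± 0.05), both higher.

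CCN1 stood lower although DDAH1, 2.56 kb from it, was higher at 147 and 151 CPM in DKO against 107 and 100 in WT (0.52 ± 0.05, adjusted p = 5.31e-21). AMOTL2 lay between RYK (0.18 ± 0.05) and ANAPC13 (-0.19 ± 0.07), and TEAD3 had FKBP5 (0.13 ± 0.05) at 76.5 kb. NUP43, 6.21 kb from LATS1, was lower (-0.19 ± 0.06). Both neighbours of CCN2, LATS2 and TEAD4 were not called. Without WT replicate 1 the calls of FKBP5, NUP43, RYK and ANAPC13 ended, and without WT replicate 2 that of HPS3 as well. Those of FKBP5 (0.08), NUP43 and ANAPC13 also ended without DKO replicate 2.

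**Figure D5:**
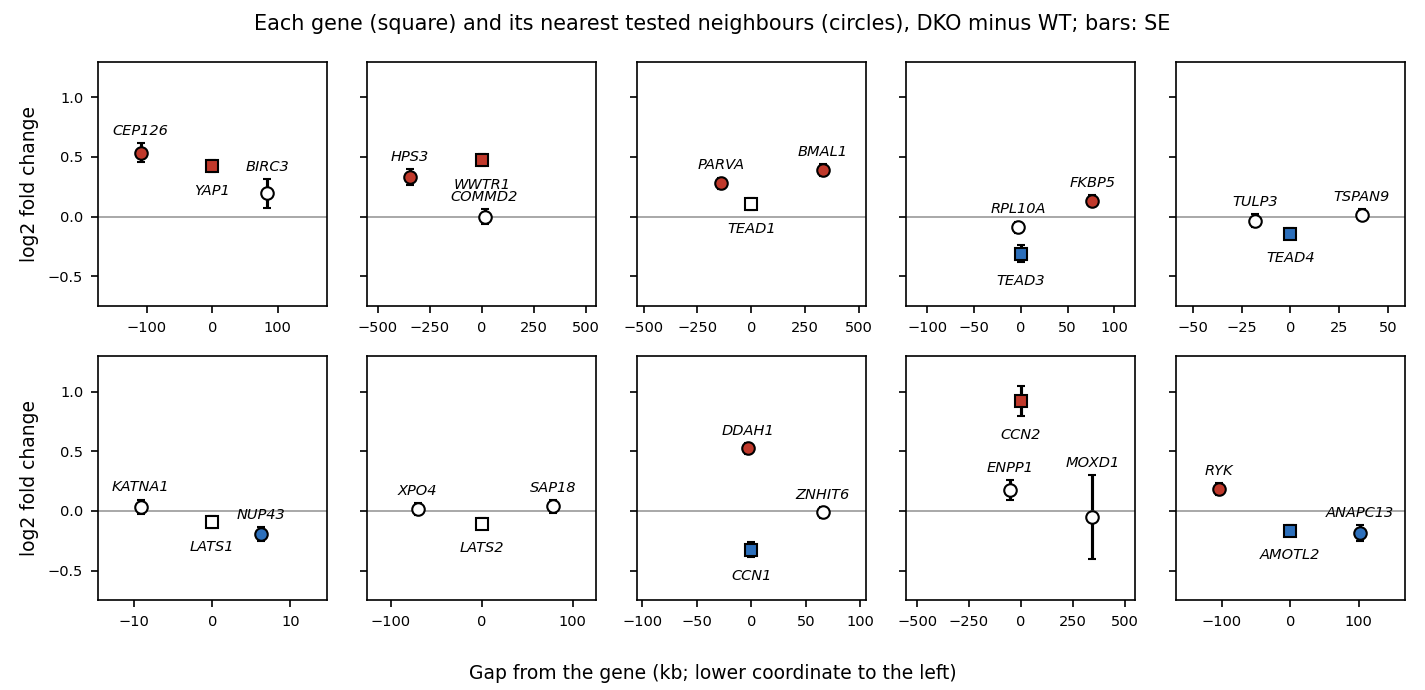
Log2 fold change (DKO minus WT, SE bars) of each Hippo gene (square) and of its nearest tested protein-coding genes (circles), by gap in kb. CCN1 and DDAH1 point in opposite directions 2.56 kb apart, and CCN2 stands above both of its neighbours. Of these, MOXD1, 345 kb away, had a mean of only 0.353 CPM.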

How the data were processed

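The authors deposited raw read counts per Ensembl gene for each of the 4 TTchem-seq libraries, made with a stranded kit per the labels' protocols. STAR 2.7.3a, featureCounts 1.6 and build hg38 are named in the submitters' processing notes. Strand setting, gene set version and counted feature were not given in the sources used here. Scaling rests on the libraries themselves, with no external standard.

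Symbols were found for 42020 of 60656 IDs and spans taken from RefSeq (GRCh38.p14). Counts were tested in edgeR 4.0.16 (R 4.3.3) by its quasi-likelihood F-test, group as the only term, TMM factors and filterByExpr (minimum count 10, minimum total 15), with Benjamini-Hochberg adjustment. Standard errors are the absolute log2 fold change over the square root of F. The biological coefficient of variation was 3.46%. Replicate pairs differed by more than sampling noise (chi-square per degree of freedom 4.98 in DKO and 4.33 in WT). The test was checked on simulated data for DKO against WT (19103 genes, 50 changed at each fold). Every simulated gene had the same biological coefficient of variation, and the changed genes had a mean CPM of at least 1. In that setting 72% were recovered at 1.25-fold, 88% at 1.5-fold and 100% at 2-fold, and 13 of 18903 unchanged genes were called. Real genes vary in spread and many more were called, so these rates need not hold for the real libraries.

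The members and lists were chosen with earlier results of these data known. Named are all members, the up to 3 largest called genes per list and direction with a mean CPM of at least 1, and each member's nearest tested protein-coding genes, of which some are not described; 1 gene that the rule names is not reported here. Alternatives were DESeq2 1.42.0, limma 3.58.1 voom, 3 other scalings, 2 other filters, a replicate block, no chromosome 20 genes and each library left out. The DESeq2 run had no filter beyond 1 read. Promoter windows were searched in Python 3.11.15, and figures drawn with matplotlib 3.10.9.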

Additional observations from a re-analysis of the deposited data

How the results depend on the processing

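Of 130 values of the 10 genes under 13 alternatives, none changed sign, 110 kept their side of the threshold, 12 lost a call and 8 gained one. With no filter beyond 1 read, 33584 genes were tested and 1640 were higher and 1655 lower, against 3632 and 4025. In that run 1 of the 10 genes was lower (TEAD4), and 12 and 9 of the other pathway genes were higher and lower. DESeq2, also run on 33584 genes with no filter beyond 1 read, called 2347 genes higher and 2469 lower. Its counts thus differ from the main ones in both test and filter. With 1 library left out, counts ran from 1023 to 3127 (genes higher), 928 to 3443 (genes lower), 3 to 4 and 0 to 4 (the 10 genes higher and lower), and 9 to 21 and 6 to 17 (other pathway genes). The low ends came without WT replicate 1; without WT replicate 2 the count of higher pathway genes was also 9, and 3 of the 10 genes were higher in all runs but that without DKO replicate 1. The lone WT library is then assumed to vary like the DKO pair.

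The groups share replicate numbers, but the replicate differences of DKO and WT correlated at only 0.01 across genes. That shows no shared replicate effect, and the labels do not say whether the numbers pair libraries. With the replicate block the count of genes higher in DKO was 3742 and that of genes lower in DKO 4078, and of the 10 genes 4 and 5, since TEAD1 (adjusted p = 0.0174) and LATS2 (0.0273) passed. Upper quartile factors moved the median of all genes to 0.03 and called TEAD1 (0.0346) and not TEAD4. COMMD2 changed sign, to 0.00597 with DESeq2 size factors, 0.0331 with upper quartile factors, 0.00826 with at least 50 reads in 2 libraries, 0.00115 by DESeq2, 0.0403 without DKO replicate 1 and 0.0181 without WT replicate 1, and was -0.0443 without DKO replicate 2. CCN2, at 128 to 287 reads per library, has the widest interval of the 10 genes.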
